A study of Homo sapiens with 6 samples.

Results

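The genes described here encode the machinery that copies DNA and supplies its building blocks. They are 45 genes, taken by symbol from a fixed list, of the 30017 in the count table, and they fall into 5 groups by role: 9 genes of origin licensing, 12 of the replicative helicase, 9 of the polymerases, 11 of the sliding clamp and the factors that work beside it at the fork, and 4 of nucleotide supply. All 45 symbols were found in the table, and all 45 were among the 14758 genes with enough counts to be tested.

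Total RNA was sequenced from BLaER1 cells, a human B cell leukaemia line that carries an estrogen-inducible form of the myeloid transcription factor C/EBPα and converts into induced macrophages (iMacs). All 6 libraries came from a subclone whose CTCF protein carries an auxin-inducible degron and is destroyed when the plant hormone IAA, an auxin, is added. This is 1 cell line, and every group carries the degron. The 2 libraries at 0 h came from cells that had received neither the transdifferentiation factors nor IAA. The 2 control libraries at 96 h came from cells given estradiol, interleukin-3 and CSF-1 without IAA. The 2 CTCF-depleted libraries at 96 h came from cells given the same factors together with IAA. According to the methods, IAA was added at the same time as the factors. Values given on depletion thus compare parallel cultures at 96 h, and not a step that follows the conversion. No library came from IAA-treated cells without the degron, so an effect of IAA itself and an effect of CTCF loss cannot be told apart.

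Replication starts when the origin recognition complex (ORC), CDC6 and CDT1 load a double ring of MCM2 to MCM7 onto DNA. CDC45 and the GINS complex then join each ring to form the active helicase, DNA polymerases copy the unwound strands, and the clamp PCNA holds the polymerases on DNA. Deoxynucleotides come from ribonucleotide reductase, thymidylate synthase and thymidine kinase. In dividing cells many of these genes are transcribed around the G1 to S transition under the control of E2F transcription factors, and most mature macrophages divide little.

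Total counts ranged from 9273470 to 12718780 per library, and the lowest count of any member in any library was 38. *CTCF* mRNA itself, which the degron does not target, had 231 and 214 CPM (counts scaled to library size, with factors from the trimmed mean of M values) at 0 h, 181 and 174 in control cells and 191 and 189 in CTCF-depleted cells, and its log2 fold change on depletion was 0.10 ± 0.05 (SE; adjusted p = 0.119, edgeR's quasi-likelihood test). Loss of the protein is therefore not visible in these data. All 9 B cell markers examined were lower and all 9 macrophage markers higher in control cells at 96 h than at 0 h. On depletion 8 of the 9 B cell markers had log2 fold changes below 0 (median -0.17), with *VPREB1* called lower (-0.89), whereas *CD22* was called higher (1.47). Because of *CD22* their sum was higher in the CTCF-depleted libraries, at 439.3 and 452.4 CPM against 421.5 and 430.4 CPM in the control libraries. Of the 9 macrophage markers 5 were above 0 on depletion (median 0.18), with *ITGAM* called higher (1.15) and *CTSB* called lower (-0.66). Their sum, most of it *LYZ* and *CTSB*, was 6523 and 6305 CPM in the control libraries and 5728 and 5684 CPM in the depleted ones. The part of these differences in the results on depletion was not tested. The T cell genes *CD3D*, *CD3E*, *CD3G* and *CD7* and the erythroid genes *HBA1*, *HBB*, *ALAS2* and *AHSP* had 0 or 1 counts in every library. Of the other T and NK cell genes, *GNLY* had 0 to 2 counts, and *CD2* and *NKG7* rose during the conversion, to 3.53 and 3.52 CPM and 34.9 and 34.5 CPM in control cells, and were not called on depletion.

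Most of the replication genes fell as the cells converted, and most had still lower values where CTCF had been depleted. Their summed level was 6139 and 5934 CPM in the libraries at 0 h, 2753 and 2748 CPM in the control libraries at 96 h, and 1996 and 1958 CPM in the CTCF-depleted libraries. The control cells thus held 45.6% of the level at 0 h, and the CTCF-depleted cells held 32.8% of it, or 71.9% of the level in control cells. The replicate libraries of each group lay close together, and the 3 groups did not overlap. In bulk RNA, fewer cells that express these genes and less of their RNA per cell cannot be told apart.

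A gene was called lower or higher when edgeR's quasi-likelihood test over all genes gave it an adjusted p below 0.01 and its log2 fold change lay outside ±0.6. Between 0 h and control cells at 96 h, 40 of the 45 members were called lower, against 22.9% of all genes tested, and 0 were called higher, against 25.4%. Their median log2 fold change was -1.09, and that of all genes 0.02. At 96 h, with CTCF-depleted cells set against control cells, 12 of 45 were called lower (26.7%), against 7.03% of all genes, and 0 were called higher, against 5.41%. The median log2 fold change was -0.45 over the members and -0.03 over all genes. In all, 36 members had an adjusted p below 0.01 with a log2 fold change below 0, the 12 called among them, and 1 had such a p above 0. In 42 of 45 members both CTCF-depleted libraries were below both control libraries, which held for 37.8% of all genes tested.

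Set directly against 0 h, the CTCF-depleted cells had 42 members called lower, where 25.2% of all genes were lower, and 0 called higher, where 27.2% were higher. The median log2 fold change of the members was -1.56 in this comparison. It shares the 0 h libraries with the first comparison and the depleted libraries with the second, and adds no independent measurement. DESeq2 also called 0 members higher in each of the 3 comparisons. At an unadjusted p below 0.05 edgeR placed 1 member above 0 in the conversion with CTCF (*RPA2*), 1 on depletion (*ORC4*) and 0 in CTCF-depleted cells against 0 h, and DESeq2 placed 0, 1 and 0 there.

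**Figure D1:**
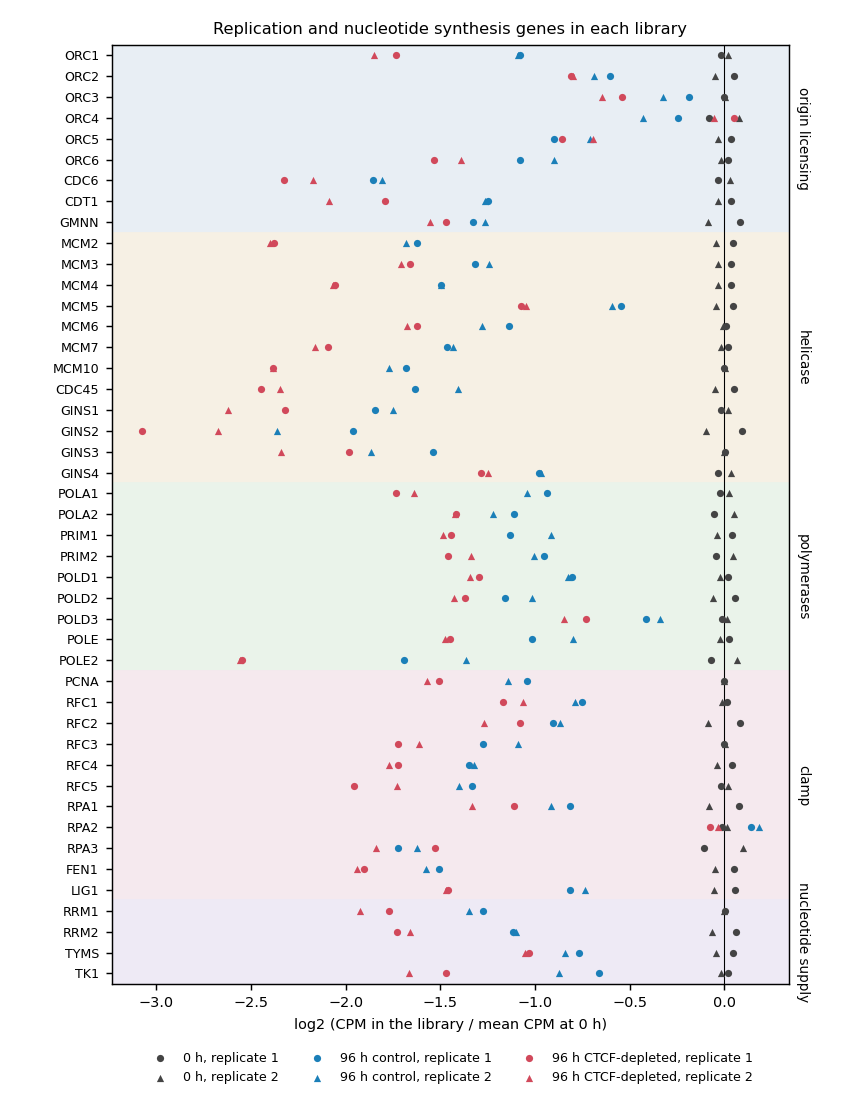
Level of each of the 45 genes in each library, as log2 of its CPM over the mean CPM at 0 h (x axis), with genes in rows grouped by role and one symbol per library. In most rows the control libraries at 96 h (blue) lie left of 0 and the CTCF-depleted libraries (red) lie further left, whereas the CTCF-depleted libraries of *RPA2* and *ORC4* lie close to 0.

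Most of the 12 calls on depletion were of moderate size. Log2 fold changes over the members ran from -1.03 (*POLE2*) to 0.33 (*ORC4*), and 43 of 45 were below 0. Only *POLE2* passed a threshold of 1 on the log2 scale, and 0 members passed glmTreat, edgeR's test of whether a change exceeds 0.6, which called 344 of the 14758 genes lower and 298 higher. With that test no single member was placed beyond a log2 fold change of -0.6. With 2 libraries per group, an exact two-sided permutation test of a single gene cannot go below p = 0.333, so that each p rests on the spread shared over all genes.

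**Figure D2:**
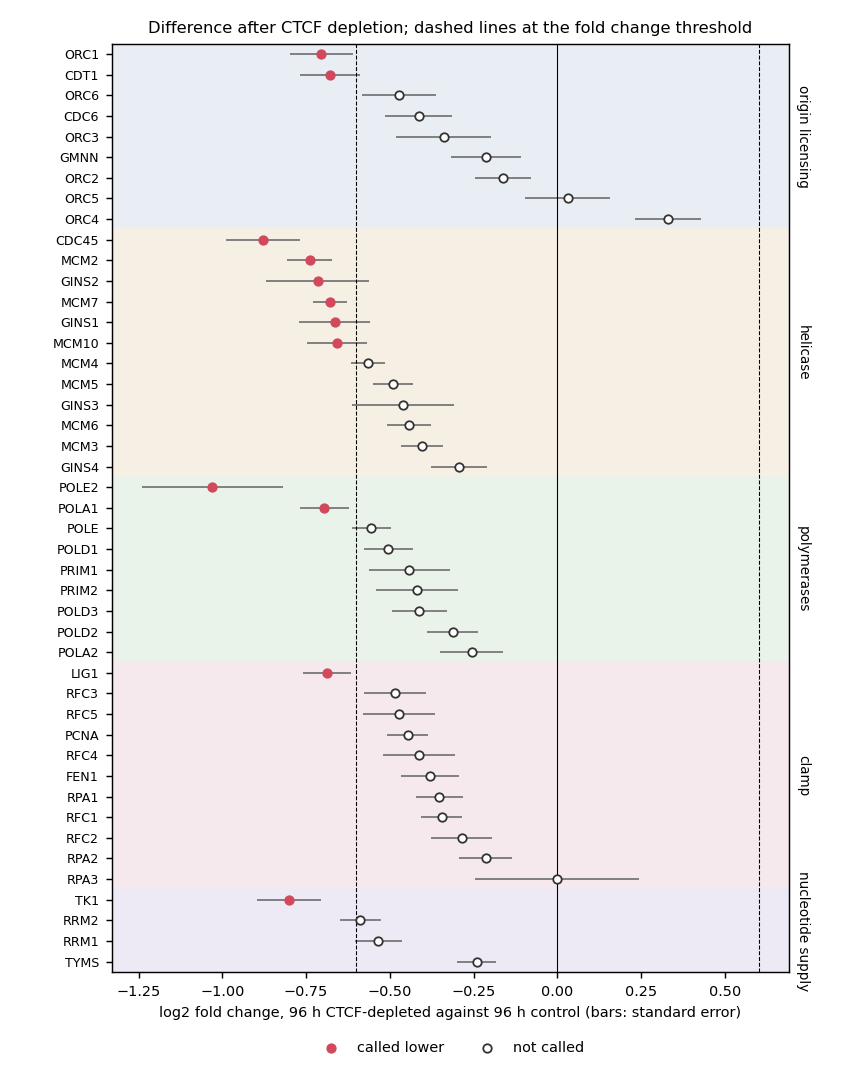
Log2 fold change of each gene between CTCF-depleted and control cells at 96 h (x axis; points, edgeR estimates; bars, standard error), sorted within the 5 roles; filled points are the 12 genes called lower and dashed lines mark the fold change threshold of 0.6. All genes but *ORC4* and *ORC5* lie below 0, from -1.03 for *POLE2* upwards.

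The promoters of the members with the smallest adjusted p on CTCF depletion in each role are shown because these genes moved together and because E2F sites are the best known element that such genes share. The sequences are the 250 bases upstream of the annotated start in RefSeq (GRCh38.p14), written 5′ to 3′ on the strand of the gene, with capitals marking exact matches to the E2F site letters TTTCCCGC, TTTCGCGC, TTTGCCGC or TTTGGCGC on either strand. *CDT1* (origin licensing) lies on the plus strand at chr16:88803539-88803788, *MCM7* (helicase) on the minus strand at chr7:100101398-100101647, *POLE* (polymerases) on the minus strand at chr12:132687343-132687592, *LIG1* (clamp) on the minus strand at chr19:48170345-48170594 and *RRM2* (nucleotide supply) on the plus strand at chr2:10122489-10122738.
CDT1: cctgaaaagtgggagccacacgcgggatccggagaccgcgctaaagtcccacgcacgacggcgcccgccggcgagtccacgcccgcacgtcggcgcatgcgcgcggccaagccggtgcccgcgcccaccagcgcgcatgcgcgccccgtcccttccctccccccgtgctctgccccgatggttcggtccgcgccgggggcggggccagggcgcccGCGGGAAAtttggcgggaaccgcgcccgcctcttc
MCM7: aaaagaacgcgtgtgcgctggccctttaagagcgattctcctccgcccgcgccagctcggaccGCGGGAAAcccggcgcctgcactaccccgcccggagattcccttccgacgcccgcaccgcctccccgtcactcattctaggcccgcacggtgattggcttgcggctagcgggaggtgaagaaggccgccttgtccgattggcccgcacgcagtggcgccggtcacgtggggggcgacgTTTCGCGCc
POLE: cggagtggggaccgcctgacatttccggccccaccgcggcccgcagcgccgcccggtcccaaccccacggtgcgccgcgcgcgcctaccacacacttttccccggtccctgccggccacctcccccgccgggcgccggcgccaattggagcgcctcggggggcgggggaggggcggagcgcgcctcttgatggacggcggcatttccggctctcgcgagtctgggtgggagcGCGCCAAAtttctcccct
LIG1: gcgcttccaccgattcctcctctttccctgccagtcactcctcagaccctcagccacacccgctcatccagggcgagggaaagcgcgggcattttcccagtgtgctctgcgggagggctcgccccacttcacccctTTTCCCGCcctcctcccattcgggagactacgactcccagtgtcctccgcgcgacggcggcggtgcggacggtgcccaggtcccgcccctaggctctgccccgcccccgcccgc
RRM2: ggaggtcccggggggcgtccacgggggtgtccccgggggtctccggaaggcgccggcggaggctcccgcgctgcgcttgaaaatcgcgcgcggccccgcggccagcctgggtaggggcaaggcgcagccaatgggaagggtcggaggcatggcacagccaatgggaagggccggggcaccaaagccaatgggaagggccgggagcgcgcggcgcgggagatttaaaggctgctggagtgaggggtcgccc
The match in *CDT1* begins 35 bases before the start, that in *POLE* 18 bases before it and that in *LIG1* 114 bases before it. *MCM7* has a pair of matches, 187 and 9 bases before its start. The *RRM2* window holds no such match, but it holds 3 copies of the CCAAT box (CCAAT).

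Over the whole set, promoters were found for 39 of the 45 members, leaving *MCM4*, *MCM5*, *GINS4*, *POLD3*, *RPA2* and *RPA3* without one. In windows from 250 bases before to 50 bases after the start, 17 of 39 members (43.6%) held an E2F match on either strand, against 5.41% of 9963 promoters of genes tested and 3.37% of all 27305 promoters. CCAAT boxes were present in 59.0% of the members against 36.9% of the genes tested, and GC boxes (GGGCGG) in 71.8% against 71.7%. The cell cycle homology region (CHR; TTTGAA or TTCGAA), an element of genes expressed in G2 and M phase, was present in 5.13% of the members and 10.9% of the genes tested. The CTCF core motif was found in 0 of 39 members and in 0.572% of the genes tested. At so low a share, 39 promoters are too few for the 0 to say anything about CTCF at these genes. Matches of different motifs may overlap, and a match is a run of letters and not a measured binding site.

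Of the 17 members with an E2F match, 8 were called lower on CTCF depletion, beside 7.03% of all genes, with a median log2 fold change of -0.56. Of the 22 without one, 4 were called lower, with a median of -0.43. In the conversion with CTCF the corresponding counts were 16 of 17 and 21 of 22, beside 22.9% of all genes, with medians of -1.26 and -1.05. Only exact matches to the letters given above were counted, so a window without one may hold an E2F site of another form. The difference between the members with and without a match was not tested.

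Of the origin licensing genes 7 of 9 were called lower in the conversion, where 22.9% of all genes were. On CTCF depletion 2 of 9, *CDT1* and *ORC1*, were called lower, beside 7.03% of all genes. Log2 fold changes on depletion were below 0 for 7 of 9, of which 4 had an adjusted p below 0.01. CDT1 is the licensing factor that brings MCM2 to MCM7 to the origin (chr16:88803789-88809258). It had 116 and 111 CPM at 0 h, 47.7 and 47.2 in control cells and 32.7 and 26.6 in CTCF-depleted cells, so the 3 groups did not overlap, although the depleted libraries were further apart than the control libraries. It fell 2.39-fold during the conversion (log2 fold change -1.26 ± 0.08, adjusted p = 8.45e-22). In depleted cells it was 1.60-fold lower than in control cells (-0.68 ± 0.09, adjusted p = 6.38e-09). Without CTCF-depleted replicate 2, its log2 fold change on depletion was -0.51 and the call was lost. *ORC1*, the ORC subunit that is degraded in S phase in human cells (chr1:52372829-52404423), had 71.7 and 73.7 CPM at 0 h, 34.4 and 34.1 CPM in control cells and 21.9 and 20.2 CPM after depletion. Its log2 fold changes were -1.09 ± 0.08 during the conversion (adjusted p = 9.06e-19) and -0.70 ± 0.09 on depletion (adjusted p = 8.33e-09). *ORC6*, the smallest ORC subunit (chr16:46689643-46698394), had 45.9 and 44.6 CPM at 0 h, 21.4 and 24.3 CPM in control cells and 15.6 and 17.2 CPM in depleted cells. Its groups did not overlap either, but its log2 fold change on depletion of -0.47 ± 0.11 (adjusted p = 0.000386) was short of the fold change threshold.

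The other licensing genes differed more from one another. *CDC6*, the ATPase that works with ORC, fell 3.56-fold during the conversion, the most of the group, and its log2 fold change on depletion was -0.41 (adjusted p = 0.000533). *GMNN* encodes geminin, which holds CDT1 inactive outside G1, and fell 2.45-fold during the conversion, with a log2 fold change on depletion of -0.21 (adjusted p = 0.102). *ORC2* fell 1.56-fold during the conversion, but without 0 h replicate 1 or without control replicate 2 its log2 fold change was -0.60 and just short of the threshold. *ORC5* fell 1.74-fold and had a log2 fold change of 0.03 on depletion. The remaining subunits, *ORC3* and *ORC4*, were not called in any of the 3 comparisons, with log2 fold changes during the conversion of -0.25 and -0.34. In CTCF-depleted cells against 0 h *ORC3* was at -0.59, just short of the threshold, and it was called at -0.68 with total-count scaling, at -0.60 without 0 h replicate 2 and at -0.65 without depleted replicate 1. On depletion *ORC4* had the only value above 0 with an adjusted p below 0.01. It had 29.9 and 33.4 CPM at 0 h, 26.7 and 23.5 CPM in control cells and 32.8 and 30.5 CPM in depleted cells, and both depleted libraries were above both control libraries (log2 fold change 0.33 ± 0.10, adjusted p = 0.00508). Exons of *ORC4* share 431 bases with *ACVR2A*, an activin receptor gene on the opposite strand, for which 102 and 111 reads were counted in the control libraries and 189 and 196 in the depleted ones, and which was called higher (log2 fold change 0.88). They also share 157 bases with *MBD5*, likewise on the opposite strand, which was at -0.04 on depletion and not called. The strand setting of the counting is not given in the sources used here, and the part of these overlaps in the result was not tested.

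Of the helicase genes 11 of 12 were called lower in the conversion, where 22.9% of all genes were. On CTCF depletion 6 of 12 were called lower, beside 7.03% of all genes: *MCM2*, *MCM7*, *MCM10*, *CDC45*, *GINS1* and *GINS2*. All 12 had log2 fold changes below 0 on depletion, 11 of them with an adjusted p below 0.01. The summed level of the 12 genes was 2678 and 2582 CPM at 0 h, 1017 and 1006 CPM in control cells and 690.9 and 678.8 CPM in CTCF-depleted cells. *MCM7*, one of the 6 subunits of the hexameric ring (chr7:100092233-100101940), had 570.3 and 556 CPM at 0 h, 204 and 209 CPM in control cells and 132 and 126 CPM after depletion. The replicate libraries of *MCM7* differed by a few percent, and it had the smallest adjusted p of all 45 genes on depletion. It was 1.60-fold lower in depleted than in control cells (log2 fold change -0.68 ± 0.05, adjusted p = 7.19e-17), and fell 2.73-fold during the conversion. For *MCM2* (chr3:127598410-127622436), the subunit that also binds histones, the values were 278 and 261 CPM at 0 h, 87.6 and 84.1 CPM in control cells and 51.8 and 51.0 CPM in depleted cells. It fell 3.14-fold during the conversion (adjusted p = 2.26e-33) and 1.67-fold on depletion (log2 fold change -0.74 ± 0.07, adjusted p = 5.64e-14). *MCM4*, which forms a tight subcomplex with MCM6 and MCM7, had 690.4 and 657 CPM at 0 h, 239 and 238 CPM in control cells and 162 and 161 CPM in depleted cells. The groups were far apart relative to their replicates, yet its log2 fold change on depletion of -0.56 ± 0.05 (adjusted p = 2.33e-14) stopped short of the fold change threshold.

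The remaining MCM subunits had smaller differences on depletion. Log2 fold changes were -0.40 for *MCM3*, -0.49 for *MCM5* and -0.44 for *MCM6*, each with an adjusted p below 0.01 and none called. *MCM5* was the helicase gene not called during the conversion, at -0.57 ± 0.06 (adjusted p = 1.31e-13). It had 196 and 184 CPM at 0 h, 129.8 and 126 CPM in control cells and 90.0 and 91.8 CPM in depleted cells, and it was called against 0 h in the CTCF-depleted cells (-1.06). Without 0 h replicate 2 or without control replicate 1 its conversion value was -0.66 and -0.63 and it was called. Counted over MCM2 to MCM7, 5 of 6 were called lower in the conversion (22.9% of all genes) and 2 of 6 on depletion (7.03%).

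Factors that turn the loaded ring into a moving helicase made up the other calls of this group. *CDC45* had 73.8 and 68.8 CPM at 0 h, 22.9 and 26.9 CPM in control cells and 13.1 and 14.0 CPM in depleted cells, and fell 1.84-fold on depletion (log2 fold change -0.88 ± 0.11, adjusted p = 1.7e-09). *MCM10*, which helps to activate the helicase, had 133 and 133 CPM at 0 h, 41.6 and 39.0 CPM in control cells and 25.6 and 25.5 CPM after depletion, a 1.58-fold decrease (adjusted p = 1.26e-08). *GINS2* fell 4.40-fold during the conversion, the largest decrease of all 45 genes, and 1.64-fold on depletion (adjusted p = 0.000122). It had 6.85 and 9.03 CPM in the depleted libraries, against 14.8 and 11.2 CPM in control cells. *GINS1* fell 3.48-fold and 1.59-fold (adjusted p on depletion = 7.42e-07), whereas *GINS3* and *GINS4*, at log2 fold changes of -0.46 and -0.29 on depletion, were not called there. Several of these calls rested on single libraries. *MCM10* was at -0.58 without control replicate 1, *GINS1* at -0.59 without control replicate 2 and -0.49 without depleted replicate 2, and *GINS2* at -0.46 without control replicate 1 and -0.49 without depleted replicate 1, each no longer called. *GINS3* was at -0.61 and called without depleted replicate 1.

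Among the polymerases 8 of 9 genes were called lower in the conversion, where 22.9% of all genes were. On CTCF depletion 2 of 9, *POLA1* and *POLE2*, were called lower, beside 7.03% of all genes. All 9 had log2 fold changes below 0 on depletion, 8 of them with an adjusted p below 0.01. *POLE*, the catalytic subunit of DNA polymerase ε, which copies the leading strand (chr12:132623753-132687376), had 312 and 302 CPM at 0 h, 151 and 176 CPM in control cells and 112 and 110.5 CPM in depleted cells. It fell 1.87-fold during the conversion, and on depletion its log2 fold change was -0.56 ± 0.06 (adjusted p = 5.07e-12), short of the threshold. The control libraries of *POLE* were further apart than its depleted libraries, and without control replicate 1 it was at -0.63 and called. *POLA1*, the catalytic subunit of the polymerase α-primase that starts each new strand (chrX:24693873-24996986), had 153 and 158 CPM at 0 h, 81.2 and 75.4 CPM in control cells and 46.8 and 49.9 CPM after depletion. Its decreases were 1.99-fold (adjusted p = 1.48e-20) and 1.62-fold (log2 fold change -0.70 ± 0.07, adjusted p = 7.4e-12). *POLD1*, the catalytic subunit of DNA polymerase δ of the lagging strand (chr19:50384204-50418018), had 126 and 122 CPM at 0 h, 71.0 and 69.9 CPM in control cells and 50.5 and 48.9 CPM in depleted cells. It fell 1.76-fold during the conversion and had a log2 fold change of -0.50 ± 0.07 on depletion (adjusted p = 9.58e-08), which was not called.

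*POLE2*, a small subunit of polymerase ε, had the largest decrease of all members on depletion, 2.04-fold (log2 fold change -1.03 ± 0.21, adjusted p = 5.7e-05). It was also among the lowest, with 20.6 and 22.7 CPM at 0 h, 6.71 and 8.43 CPM in control cells and 3.70 and 3.68 CPM in depleted cells, and without control replicate 2 its adjusted p was 0.0121 and the call was lost. The primase subunits had log2 fold changes on depletion of -0.44 (*PRIM1*) and -0.42 (*PRIM2*), and *POLA2*, *POLD2* and *POLD3* of -0.26, -0.31 and -0.41. All of these had both depleted libraries below both control libraries and none was called. *POLD3* was the polymerase gene not called during the conversion, with 66.6 and 67.8 CPM at 0 h, 50.5 and 53.2 CPM in control cells and 40.5 and 37.4 CPM in depleted cells (log2 fold change -0.38 ± 0.08, adjusted p = 1.83e-05).

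Of the clamp and the fork factors beside it, 10 of 11 were called lower in the conversion, where 22.9% of all genes were. On CTCF depletion 1 of 11, *LIG1*, was called, a share of 9.09% that is near the 7.03% of all genes. A log2 fold change below 0 with an adjusted p below 0.01 was found for 9 of 11 on depletion. *LIG1* encodes the ligase that seals Okazaki fragments (chr19:48115445-48170603) and had 152 and 141 CPM at 0 h, 83.1 and 88.0 CPM in control cells and 53.2 and 53.0 CPM in depleted cells. Its decreases were 1.71-fold during the conversion (log2 fold change -0.77 ± 0.06, adjusted p = 2.51e-16) and 1.61-fold on depletion (-0.69 ± 0.07, adjusted p = 5.33e-12). *PCNA*, the clamp itself (chr20:5114953-5126626), had 239 and 239 CPM at 0 h, 116 and 108 CPM in control cells and 84.1 and 80.7 CPM after depletion. It fell 2.13-fold during the conversion, and its log2 fold change on depletion was -0.45 ± 0.06 (adjusted p = 1.23e-08). *RFC1*, the large subunit of the clamp loader (chr4:39287456-39366375), had 184 and 181 CPM at 0 h, 109 and 106 CPM in control cells and 81.2 and 87.4 CPM in depleted cells. Its log2 fold change on depletion was -0.35 ± 0.06 (adjusted p = 6.55e-06), with the depleted libraries below both control libraries.

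The small clamp loader subunits *RFC2* to *RFC5* fell 1.84-fold to 2.58-fold during the conversion. On depletion their log2 fold changes ran from -0.48 (*RFC3*) to -0.29 (*RFC2*), and none was called. *FEN1*, the flap endonuclease that trims Okazaki fragments, fell 2.91-fold during the conversion and had a log2 fold change of -0.38 on depletion (adjusted p = 0.000298). The subunits of RPA, the complex that coats single-stranded DNA, did not move together. *RPA1* fell 1.82-fold during the conversion. *RPA2* had 50.03 and 50.85 CPM at 0 h, 55.6 and 57.1 CPM in control cells and 47.9 and 49.3 CPM in depleted cells, and was the one member with a log2 fold change above 0 during the conversion (0.16 ± 0.08, adjusted p = 0.0591). *RPA3* fell 3.20-fold during the conversion, but on depletion its libraries overlapped, at 3.80 and 4.07 CPM in control and 4.35 and 3.50 CPM in depleted cells. At 38 to 47 counts in each of these libraries, a small difference on depletion could not be detected at this depth (log2 fold change -0.00 ± 0.24). The annotation names pseudogenes of 10 members, *PCNA*, *RPA2*, *RPA3* and *RRM2* among them, with which the counting could have split reads, and the values of these members are less certain for it.

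All 4 nucleotide supply genes were called lower in the conversion, where 22.9% of all genes were. On CTCF depletion 1 of 4, *TK1*, was called lower, beside 7.03% of all genes. All 4 had a log2 fold change below 0 on depletion with an adjusted p below 0.01. *RRM2*, the small subunit of ribonucleotide reductase and the one made for S phase (chr2:10120698-10211725), had 267 and 244 CPM at 0 h, 118 and 119 CPM in control cells and 76.9 and 80.7 CPM in depleted cells. Its log2 fold change on depletion of -0.59 ± 0.06 (adjusted p = 5.84e-12) was just short of the threshold. *RRM1*, the large subunit (chr11:4094707-4138932), had 188 and 187 CPM at 0 h, 77.3 and 73.5 CPM in control cells and 54.8 and 49.4 CPM after depletion, with log2 fold changes of -1.31 during the conversion and -0.53 ± 0.07 on depletion (adjusted p = 8.09e-09). *TK1*, the cytosolic thymidine kinase of the salvage pathway (chr17:78174091-78187233), had 63.4 and 61.7 CPM at 0 h, 39.5 and 34.1 CPM in control cells and 22.6 and 19.7 CPM in depleted cells. It fell 1.70-fold during the conversion (adjusted p = 1.96e-12) and 1.74-fold on depletion (log2 fold change -0.80 ± 0.10, adjusted p = 4.65e-10). *TYMS*, which makes thymidylate de novo, fell 1.74-fold during the conversion and had a log2 fold change of -0.24 ± 0.06 on depletion (adjusted p = 0.00049).

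Levels can be compared between genes only roughly, after division by exon length. The length used merges the exons of all protein-coding transcripts of a gene and can exceed that of the RNA present. The annotation used for counting is not given, so ranks and ratios between genes depend in part on these lengths. At 0 h *PCNA* was highest, at 170.6 CPM per kb of exon, followed by *MCM4* at 150.4 ± 5.23 (SD, n = 2), *TYMS* at 140.1 ± 6.10 and *MCM7* at 135 ± 2.36, the last pair differing by less than the SD of *TYMS*. In control cells at 96 h *TYMS* (80.2 ± 2.86) and *PCNA* (80.0 ± 4.06) did not differ beyond their spread. In CTCF-depleted cells *TYMS* was highest, at 67.9 ± 0.690 CPM per kb, above *PCNA* at 58.7 ± 1.70. Of the 1613 exon bases of *TYMS*, 967 overlap exons of *ENOSF1* on the opposite strand, for which 1 to 5 reads were counted per library. The part of this overlap in the level and rank of *TYMS* was not tested. *RPA2* went from rank 26 of 45 at 0 h to rank 8 in control cells and rank 6 in depleted cells, at 25.5, 28.5 and 24.5 CPM per kb.

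The proteins of the MCM ring are needed in equal numbers, but the levels of their mRNAs per merged exon length were not equal. *MCM4* was highest in every group, and the ratio of the highest to the lowest subunit was 2.82 at 0 h (lowest *MCM5*), 2.54 in control cells and 2.87 in depleted cells (lowest *MCM2* in both). *MCM5* stood last of the 6 at 0 h, at 53.3 ± 2.35 CPM per kb, and behind *MCM4* and *MCM7* alone at 96 h, at 35.9 ± 0.790 CPM per kb in control cells and 25.6 ± 0.367 in depleted cells. The ORC subunits drew closer together, from a ratio of 5.43 at 0 h (*ORC6* over *ORC4*) to 3.45 in control cells and 2.33 in depleted cells (*ORC6* over *ORC3*). The GINS subunits drew apart, from 1.19 at 0 h to 2.09 and 2.79 at 96 h, where *GINS4* was highest and *GINS2* lowest. The RPA subunits stood 5.65-fold apart at 0 h (*RPA1* over *RPA3*) and 15.5-fold and 13.4-fold apart at 96 h (*RPA2* over *RPA3*).

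**Figure D3:**
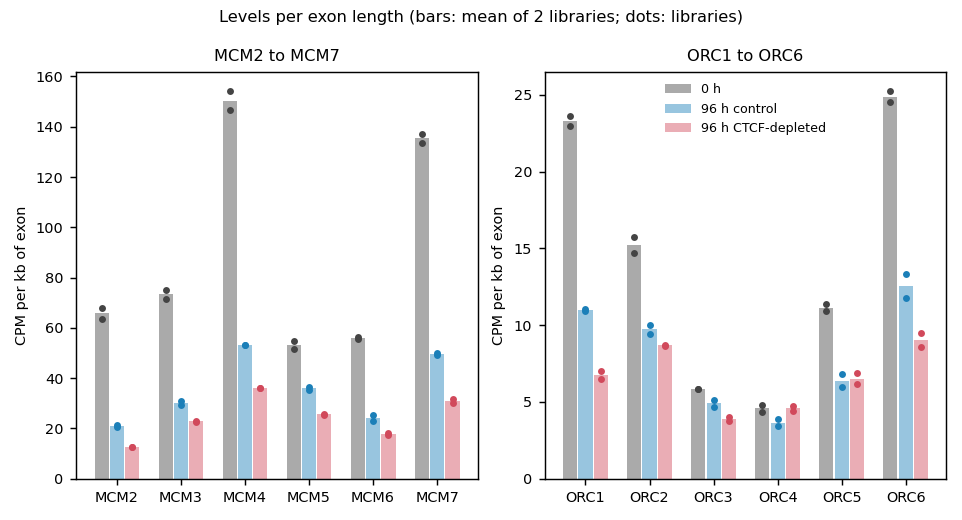
CPM per kb of exon (y axes; bars, mean of 2 libraries; dots, libraries) for the 6 MCM ring subunits (left) and the 6 ORC subunits (right) at 0 h, in control cells and in CTCF-depleted cells at 96 h. *MCM4* is highest of the ring in every group. *ORC4* in depleted cells is close to its level at 0 h, while *ORC1* is lower in control cells than at 0 h and lowest in depleted cells.

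Other genes of the same processes were counted from fixed lists. Of 27 other fork and origin factors, 16 were called lower (59.3%, against 22.9% of all genes) and 1 higher (3.70%, against 25.4%) in the conversion. On CTCF depletion 5 were called lower (18.5%, against 7.03% of all genes): *MTBP*, *TICRR*, *ATAD5*, *WDHD1* and *DNA2*. *MTBP*, a partner of the origin-firing factor TICRR, had 54.6 and 51.9 CPM at 0 h, 35.6 and 37.3 CPM in control cells and 17.8 and 17.5 CPM in depleted cells. It was not called during the conversion (-0.54), but fell 2.06-fold on depletion (log2 fold change -1.05 ± 0.10, adjusted p = 8.9e-14), and *TICRR* itself fell 1.72-fold (adjusted p = 2.12e-13). The gene of this list that rose during the conversion was *POLD4*, a small subunit of polymerase δ (log2 fold change 1.16). *CLSPN*, the checkpoint mediator claspin, was at 111 and 111 CPM in control and 113 and 109 CPM in depleted cells (log2 fold change -0.00).

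Of 7 genes that rebuild chromatin behind the fork, 4 were called lower in the conversion (57.1%, against 22.9% of all genes): *UHRF1*, *CHAF1A*, *CHAF1B* and *SLBP*. On depletion 4 were called lower (57.1%, against 7.03%): *UHRF1*, *ASF1A*, *CHAF1A* and *CHAF1B*. *UHRF1*, which recruits the maintenance methyltransferase DNMT1, had 659 and 624 CPM at 0 h, 124 and 123 CPM in control cells and 62.2 and 60.9 CPM in depleted cells. It fell 5.20-fold during the conversion (adjusted p = 1.52e-44) and 2.00-fold on depletion (adjusted p = 3.24e-21). The histone chaperone *ASF1A* had 32.4 and 30.5 CPM in control and 15.6 and 13.1 CPM in depleted cells and fell 2.20-fold (adjusted p = 3.62e-13), while its paralogue *ASF1B* had a log2 fold change of -0.34 and was not called.

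Of 28 other genes of nucleotide synthesis, 19 were called lower in the conversion (67.9%, against 22.9% of all genes) and 3 higher (10.7%, against 25.4%). On CTCF depletion 2 were called lower, *DTYMK* and *DHODH*, a share of 7.14% that is close to the 7.03% of all genes. *DTYMK*, the thymidylate kinase, had 17.7 and 15.1 CPM in control and 9.91 and 9.30 CPM in depleted cells and fell 1.71-fold (adjusted p = 1.62e-05). Among the enzymes of de novo purine and pyrimidine synthesis, described together after their values were seen, *CAD*, *UMPS*, *DHODH*, *PPAT*, *GART*, *PFAS*, *PAICS*, *ADSL*, *ATIC*, *IMPDH2*, *GMPS*, *CTPS1* and *CTPS2* fell during the conversion, and *IMPDH1* did not (0.50). On depletion they did not form one pattern. *DHODH* was called lower (-0.72), while *PFAS* (-0.56), *PAICS* (-0.30), *CTPS1* (-0.27) and *GART* (-0.22) had an adjusted p below 0.01 but were short of the fold change threshold. The others ran from -0.27 (*CTPS2*) to 0.08 (*PPAT*), none with an adjusted p below 0.01. The 3 that rose during the conversion were *SAMHD1*, *TK2* and *RRM2B*. *SAMHD1*, which degrades deoxynucleotides, went from 2.48 and 3.98 CPM at 0 h to 65.8 and 70.1 CPM in control cells and 91.6 and 88.3 CPM in depleted cells (log2 fold change during the conversion 4.34 ± 0.13, adjusted p = 3.64e-37). Mitochondrial thymidine kinase *TK2* rose 3.95-fold and *RRM2B*, the reductase subunit used outside S phase, rose 2.38-fold, so that *RRM2* and *RRM2B* went in opposite directions during the conversion.

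Of 18 E2F factors, their partners and the pocket proteins that restrain them, 6 were called lower (33.3%, against 22.9% of all genes) and 1 higher (5.56%, against 25.4%) in the conversion. On CTCF depletion 7 were called lower (38.9%, against 7.03%): *E2F1*, *E2F2*, *E2F8*, *MYBL2*, *TFDP2*, *RBL1* and *LIN9*. *E2F2*, an activating E2F, had 276 and 264 CPM at 0 h, 111 and 119 CPM in control cells and 50.6 and 47.0 CPM in depleted cells. Its decreases were 2.35-fold in the conversion (adjusted p = 5.16e-28) and 2.36-fold on depletion (adjusted p = 2.58e-23). *E2F8*, a repressive member, was at 50.7 and 53.2 CPM in control and 25.5 and 25.6 CPM in depleted cells (2.03-fold lower, adjusted p = 5.16e-15) but was not called during the conversion (-0.24). *RBL2*, the pocket protein of resting cells, rose 1.85-fold during the conversion and had a log2 fold change of -0.01 on depletion, and *RB1* was called in neither.

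Genes of G2 and M phase were examined beside the replication genes, although their levels in bulk RNA do not count dividing cells. On depletion 14 of 16 were called lower (87.5%, against 7.03% of all genes), with a median log2 fold change of -0.72 against -0.45 over the 45 replication genes. During the conversion the order was the other way round, with a median of -0.85 over the G2/M genes and -1.09 over the replication genes, and the difference between the lists was not tested. *TOP2A*, the mitotic topoisomerase, had 465 and 467 CPM at 0 h, 296 and 299.7 CPM in control cells and 175 and 172 CPM in depleted cells. It fell 1.57-fold during the conversion and was 1.71-fold lower in depleted than in control cells (adjusted p on depletion = 2.3e-20). *MKI67*, the proliferation marker Ki-67, had 1034 and 1059 CPM at 0 h, 869 and 930.2 CPM in control cells and 552 and 552 CPM in depleted cells. It was not called during the conversion (-0.22 ± 0.05) and fell 1.63-fold on depletion (adjusted p = 2.98e-19). The medians of both lists were below 0 in both comparisons, and the part of the G2/M genes in the lower replication gene levels was not tested.

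The members lie on 19 chromosomes, and 10 of them start within 1000 bases of a gene on the opposite strand in a head-to-head arrangement. The partners were *PRPF38A* (of *ORC1*), *RARS2* (*ORC3*), *MBD5* (*ORC4*), *VPS35* (*ORC6*), *PRKDC* (*MCM4*), *AP4M1* (*MCM7*), *PXMP2* (*POLE*), *SMYD4* (*RPA1*), *TMEM258* (*FEN1*) and *AFMID* (*TK1*). During the conversion 4 of the 10 partners were called lower and 1, *MBD5*, higher, where 22.9% and 25.4% of all genes were. The median log2 fold change of the partners was -0.40, against -0.95 over their members. On CTCF depletion 1 of 10 partners was called lower, beside 7.03% of all genes, with a median of -0.11 against -0.51. The partner called lower was *PXMP2*, a peroxisomal membrane protein gene that starts 245 bases from *POLE*. It had 84 and 87 reads in the control libraries and 54 and 54 in the depleted ones (log2 fold change -0.63 ± 0.20, adjusted p = 0.00783). *PRKDC*, the DNA-dependent protein kinase gene 805 bases from *MCM4*, was at -0.38 ± 0.05 on depletion and not called. *VPS35*, which starts 481 bases from *ORC6*, was at 0.07 ± 0.06, where *ORC6* was at -0.47. In 8 of 10 pairs the partner's log2 fold change lay above that of the member on depletion, and in 9 of 10 during the conversion. Exons of 7 members, *GINS2*, *MCM7*, *ORC4*, *PRIM1*, *RFC4*, *RPA1* and *TYMS*, also overlap exons of a gene on the opposite strand. For *MCM7* the overlap with *AP4M1* is 277 bases, and *AP4M1* received 131 and 132 reads in the control libraries and 125 and 124 in the depleted ones (log2 fold change -0.05 ± 0.15).

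**Figure D4:**
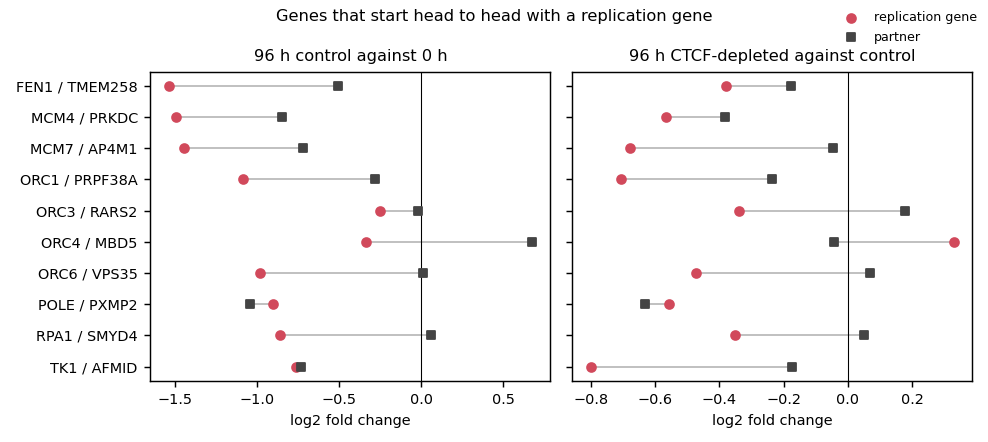
Log2 fold change (x axes) of 10 replication genes (circles) and of the gene that starts within 1000 bases on the opposite strand (squares), in the conversion with CTCF (left) and on CTCF depletion at 96 h (right), with a line joining each pair. Most squares lie to the right of their circle, the exceptions on depletion being *POLE* with *PXMP2* and *ORC4* with *MBD5*.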

How the data were processed

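RNA was measured by RNA-seq in 6 libraries, with 2 biological replicates, according to the methods of the study, at 0 h, in control cells at 96 h and in CTCF-depleted cells at 96 h. The deposited values are raw read counts per gene. According to the methods and the submitters' processing notes, alignment by the authors used STAR 2.6.1d and the hg38 build within the nf-core/rnaseq pipeline, and featureCounts 2.0.6 then counted reads on exons of protein-coding genes. The table also holds genes of other types, and the annotation release and strand setting are not given in the sources used here. The library kit preserves strand.

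Differences between groups were tested with edgeR 4.0.16 under R 4.3.3 (filterByExpr, TMM, quasi-likelihood fit of all 6 libraries with the group as the only term, Benjamini-Hochberg adjustment over 14758 genes). Thresholds follow the study, which applied them to results of DESeq2. Over all genes on CTCF depletion, edgeR called 1038 lower and 798 higher here, and DESeq2 called 721 and 559. The common biological coefficient of variation was 3.96%, and p-values measure only the spread between these libraries. Replicates differed beyond sampling noise (chi-square per degree of freedom 1.59 to 2.36) and were counted as separate samples. DESeq2 1.42.0 was an alternative. Summaries used Python 3.11.15, pandas 2.3.3 and numpy 2.4.6, and plots matplotlib 3.10.9. Exon lengths and positions came from GENCODE release 44 (hg38), with the exons of a gene merged, and promoters from RefSeq (GRCh38.p14).

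The members, gene lists and tests were chosen with earlier results of these data known. All members are accounted for. In each group, the 3 with the smallest adjusted p on CTCF depletion were given in full, and called members were named. Promoters were shown for the member with the smallest adjusted p that had a promoter window and lay outside chromosomes 8 and 18. In each further list, the called gene with the smallest adjusted p was named, and other genes named there were chosen after their values were seen. Alternatives were normalization, filters, thresholds, the samples fitted, the replicate number as a block, and leaving out each library. Same-numbered replicates did not deviate together (correlation of replicate differences -0.03 to 0.01), so the numbers were not taken as pairs. A motif search in the proteins was not done.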

Additional observations from a re-analysis of the deposited data

How the results depend on the processing

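The 40, 12 and 42 members called lower in the conversion with CTCF, on CTCF depletion and in CTCF-depleted cells against 0 h were each called with DESeq2, with RLE normalization, with total-count scaling, without a filter, with at least 10 counts in every library and with only the 4 libraries compared, with up to 1 further member. With the replicate number as a block (replicate block), 40 of 40, 12 of 12 and 42 of 42 were shared and no call of a member changed. The numbers share no more than a label here (correlations of replicate differences -0.0194, 0.0109 and -0.0294 between groups). Thresholds moved the counts most. On depletion the members lower were 0 with glmTreat, 1 at a log2 fold change threshold of 1, and 39 (with 1 higher, *ORC4*) with an adjusted p of 0.05 as the one criterion, and in the conversion they were 26 at a threshold of 1. Leaving out 1 library at a time gave 39 to 41 members lower in the conversion, 10 to 12 on depletion and 42 to 43 against 0 h. Total-count scaling moved the median of all genes in the conversion from 0.02 to -0.10, and with it the median of the members to -1.21 in the conversion and -1.65 in CTCF-depleted cells against 0 h. Without single libraries the median in the conversion ran from -1.15 (without 0 h replicate 2) to -1.10 (without 0 h replicate 1).

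The sign changed in values close to 0. *RPA3* on depletion was 0.00975 with DESeq2, 0.0110 with RLE normalization, 0.0112 with at least 10 counts, 0.0337 with total-count scaling, 0.0293 without a filter and 0.0300 with 4 libraries, and -0.128 to 0.176 without single libraries. *ORC5* on depletion was -0.0321 to 0.159 without single libraries. *ORC4* in CTCF-depleted cells against 0 h was 0.0119 with at least 10 counts and -0.0577 to 0.0728 without single libraries. With 2 libraries per group and 38 counts for the lowest member, depth limits *RPA3*, *POLE2* and *GINS2* most.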
